A study of Rattus norvegicus with 8 samples.

Results

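The genes for 6 fatty acid-binding proteins (Fabp1, Fabp2, Fabp3, Fabp5, Fabp6 and Fabp7) were followed in ovary RNA of immature female rats. They were found as the non-control probes whose gene name on the array equals one of these symbols, 6 of the 26204 gene names on it, each with 1 probe of 60 bases printed at 2 spots per array. Fatty acid-binding proteins are small intracellular carriers that hold a hydrophobic molecule inside a barrel of protein strands and move it through the watery cytoplasm to enzymes, membranes or nuclear receptors. Most carry long-chain fatty acids. Fabp6, also called ileal bile acid-binding protein or gastrotropin, carries bile acids and is best known from the absorbing cells of the lower small intestine, and in the ovary lipid carriers serve cells that store and convert cholesterol into steroid hormones.

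RNA was measured on 1-colour Agilent arrays, 4 labelled control and 4 labelled PMSG. PMSG, pregnant mare serum gonadotropin, is a hormone preparation that stimulates follicle growth. By the protocols, rats aged 26 days received 50 IU of it under the skin in 0.2 ml of a phosphate buffer with albumin, or that buffer alone, and their ovaries were collected after 48 h, at an age of 28 days. Both groups are whole ovary, so the RNA of all its cell types is mixed. No source used here says that the arrays of a group came from separate animals, so p-values measure only the spread between these samples.

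Levels are log2 signals minus the array's own 75th percentile of log2 signal, so a level of 0 lies at that percentile and a step of 1 is a doubling. The percentile lay at a signal between 768.9 and 1103.1 on the 8 arrays, and 80.8% to 84.6% of probes were well above background. A probe was tested where it was above background on at least 4 of the 8 arrays, which 25303 probes were. Of the 6 fatty acid-binding protein genes, 4 met this (Fabp2, Fabp3, Fabp5 and Fabp6). Markers of steroid-making cells ran against what is generally known of gonadotropin treatment: 9 of 10 tested were lower in arrays labelled PMSG. The labels are used as given, and every direction is written for arrays labelled PMSG or labelled control. Whether labels were exchanged was not tested; if they were, every direction given here would turn. Because the 6 genes were chosen with this contrast in view, their differences are given as a description, with no test.

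The probes of the 3 brighter genes are shown because every level below is the signal at these letters, and a near-identical stretch elsewhere would add to it. For Fabp6 and Fabp5 a stretch of 30 bases of the probe is given, and for Fabp3 the whole probe. Capitals mark AATAAA, the usual signal for adding the poly(A) tail, in the Fabp6 probe.

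Fabp6: ctgcaacccatcAATAAAagtgcaccatgg

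Fabp5: gacttttcatcatagacactttacccgaaa

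Fabp3: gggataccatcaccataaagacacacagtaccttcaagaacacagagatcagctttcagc

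Over the 6 probes, the longest run of bases shared with a probe of any other gene name was 13 to 14 bases, so none of the 6 is a near copy of another probe on the array. For Fabp5 the RefSeq table lists 2 pseudogenes, and its probe carries no coordinates in the array files, so its signal may include RNA from such a copy.

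Fabp6 was the member that stood furthest apart between the labels. Its probe lies on chromosome 10 from 28694773 to 28694832 on the minus strand of the rat build rn4. On the control-labelled arrays 1 to 4 its level was 4.72, 3.99, 4.56 and 4.18, a mean of 4.36 ± 0.34 (SD, n = 4). On the PMSG-labelled arrays 1 to 4 it was -2.59, -1.23, -2.84 and -3.37, a mean of -2.51 ± 0.91 (SD, n = 4). All 4 control-labelled arrays lay far above the percentile that sets 0 and all 4 PMSG-labelled arrays lay below it. The groups did not overlap, with 5.22 log2 units between the lowest control-labelled and the highest PMSG-labelled array. The log2 difference, PMSG minus control, was -6.87 (SE 0.42), or 117-fold.

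**Figure D1:**
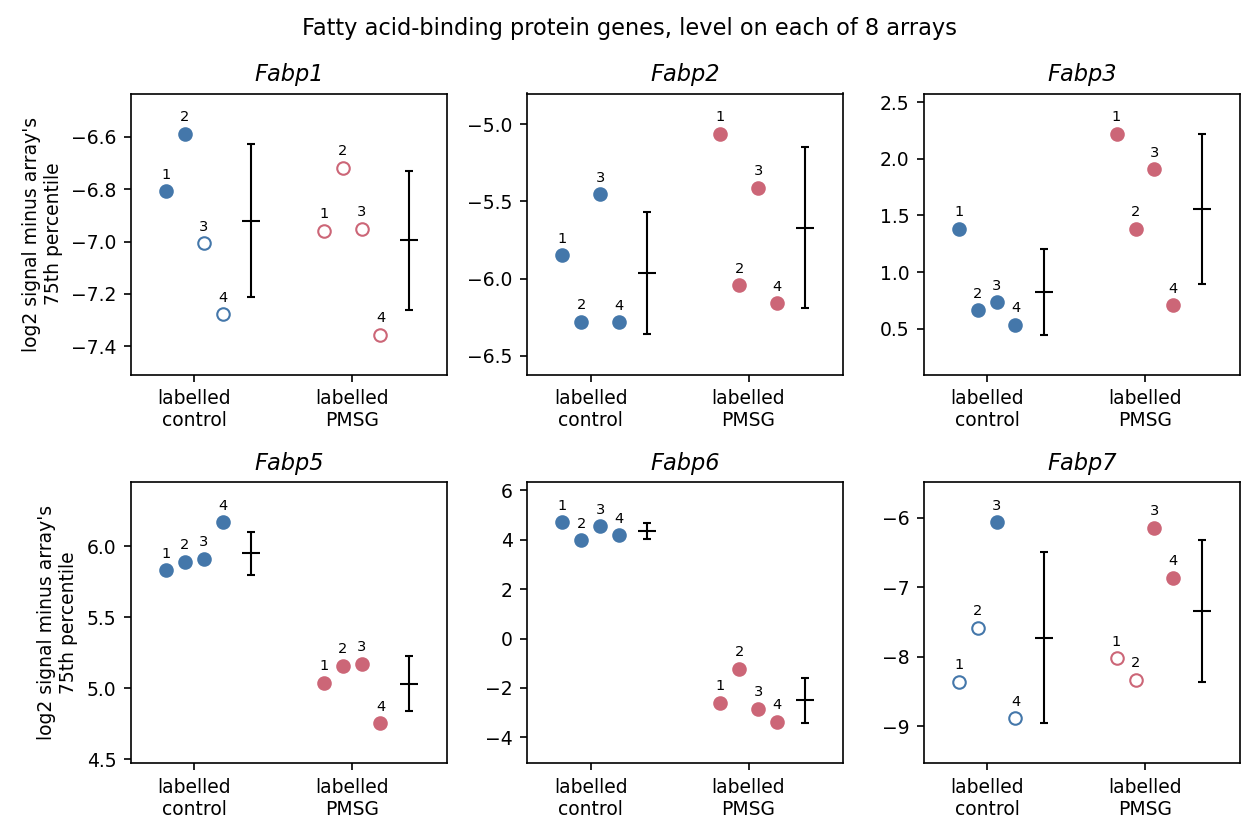
Level of each fatty acid-binding protein gene (log2 signal minus the array's 75th percentile) on the 4 arrays labelled control (blue) and the 4 labelled PMSG (red). Numbers are replicate numbers, open circles are arrays where the probe was not well above background, and black bars are the mean and SD of 4 arrays; each panel has its own axis. Fabp6 spans from 4.72 to -3.37 and Fabp5 is the other gene whose groups do not overlap.

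The low Fabp6 values were still measured signals. Before scaling, the processed signal of the arrays labelled control read 27417, 16734, 23653 and 20028 in the scanner's units, and that of the arrays labelled PMSG 163, 437, 107 and 104. All 16 spots of the probe over the 8 arrays were well above background and none was saturated, so the fold is a measured value and not a bound. PMSG array 2 was the highest of its label, and without it the log2 difference was -7.30. Leaving out each array in turn gave -7.30 to -6.58. The arrays lay in 2 rows of 1 slide, and the difference was -6.12 in row 1 and -7.62 in row 2, with 2 arrays of each label in each row. In whole ovary, fewer cells that express a gene and less of its RNA per cell cannot be told apart.

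Among the 25303 tested probes, 2 had a lower fitted difference than Fabp6, both of Akr1c3 and above background on 1 and 0 of the 4 PMSG-labelled arrays. Their fitted values there rest on signals not well above background. With normexp background correction, followed by quantile normalization, the brighter Akr1c3 probe differed by -5.49 against -6.40 for Fabp6, so no order among them is read. Normexp adds an offset and so shrinks differences between dim signals. The median difference over all tested probes was 0.11. A share of 36.6% of tested probes had groups that did not overlap, 18.6% with the PMSG-labelled arrays lower and 17.9% with them higher. At a limma adjusted p under 0.05, 34.2% of tested probes differed, 16.6% lower and 17.6% higher. Of the 4 fatty acid-binding protein genes that could be tested, Fabp5 and Fabp6 had groups that did not overlap, both lower in arrays labelled PMSG. Since the 6 genes were picked on this contrast, nothing is read from that share.

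**Figure D2:**
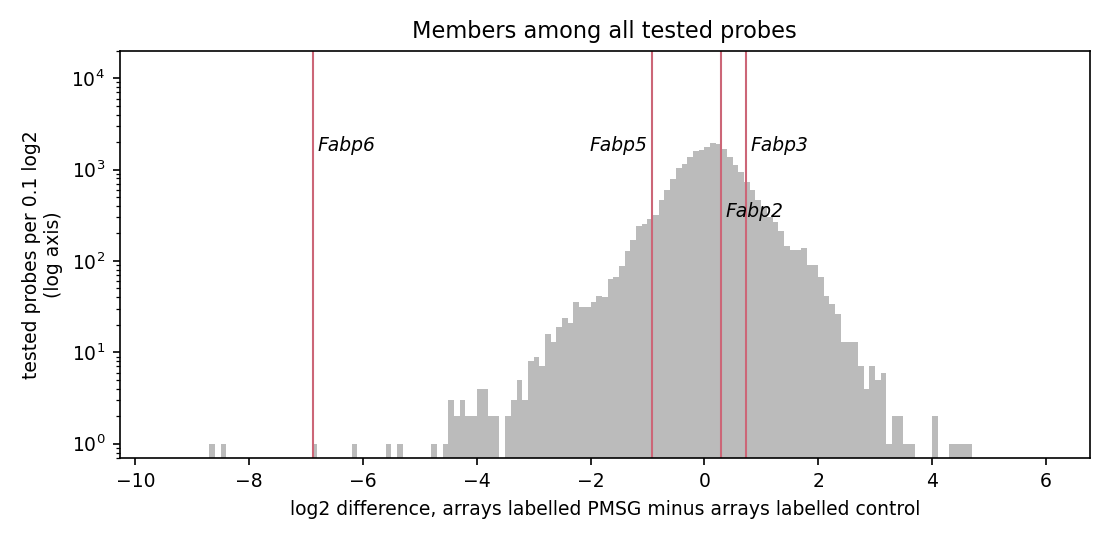
Number of tested probes (log axis) by log2 difference, arrays labelled PMSG minus arrays labelled control, in steps of 0.1. Vertical lines mark the members that could be tested: Fabp6 at -6.87 lies in the far left tail, Fabp5 at -0.92 in the left shoulder, and Fabp2 at 0.30 and Fabp3 at 0.73 on the right of the centre.

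The bases before the Fabp6 start are printed because the known regulators of this gene act through short elements there. Shown are the 250 bases before the start in RefSeq, on the minus strand of build GRCr8 at chr10:28569728-28569977, another build than that of the probe. Capitals mark, in order, matches to CAAGGNCA, to AGGTGA and AGGTTA facing each other with 1 base between, to TCACNCCAC and to TATAAA, each searched on both strands; the matches do not overlap.

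Fabp6 promoter: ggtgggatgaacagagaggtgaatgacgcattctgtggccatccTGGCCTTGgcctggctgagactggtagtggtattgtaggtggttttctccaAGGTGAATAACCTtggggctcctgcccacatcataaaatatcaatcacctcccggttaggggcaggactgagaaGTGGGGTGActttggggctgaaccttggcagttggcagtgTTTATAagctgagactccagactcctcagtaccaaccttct

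A facing pair of such short sites with 1 base between is the arrangement that the bile acid receptor Nr1h4 (FXR) is known to bind with its partner Rxra. The pair shown began 155 bases before the start, and its letters were written down from this gene's known element, so that Fabp6 holds them is no result. Of 33469 promoters of the same length in the table, 1 (0.00299%) held them, the one shown. The general form, AGGTCA facing AGGTCA with 1 base between, was in 9 (0.0269%) and in none of the 5 members that have a promoter in the table. TCACNCCAC, a form of the sterol regulatory element, was in 0.974% of promoters, CAAGGNCA, the form bound by Nr5a2 and its relative Nr5a1, in 5.58%, and TATAAA in 12.9%. CAAGGNCA and TATAAA were also found before Fabp1. These are matches of letters and do not show that a factor was bound in the ovary.

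Fabp5 carries fatty acids and retinoic acid in skin, fat and many other tissues. On the control-labelled arrays 1 to 4 its level was 5.83, 5.89, 5.91 and 6.17, a mean of 5.95 ± 0.15 (SD, n = 4). On the PMSG-labelled arrays 1 to 4 it was 5.04, 5.16, 5.17 and 4.76, a mean of 5.03 ± 0.19 (SD, n = 4). Each PMSG-labelled array lay below each control-labelled one, with a gap of 0.65, and the SDs were small against it. The log2 difference was -0.92 (SE 0.13), or 1.89-fold, and ran from -0.97 to -0.83 with each array left out. It was -0.86 in slide row 1 and -0.97 in row 2. So for Fabp5 the probe stayed bright under both labels, while Fabp6 went from far above the 75th percentile to below it.

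Fabp3, the heart and muscle form, supplies fatty acids for oxidation. Its probe lies on chromosome 5 from 149344170 to 149344229 on the plus strand of rn4. Arrays 1 to 4 read 1.38, 0.66, 0.73 and 0.53 under the control label and 2.22, 1.38, 1.91 and 0.71 under the PMSG label. The groups overlapped, since PMSG array 4 lay within the control range and control array 1 and PMSG array 2 had the same value to 2 decimals. The mean was 0.83 ± 0.38 (SD, n = 4) in control and 1.56 ± 0.66 (SD, n = 4) in PMSG, a log2 difference of 0.73 (SE 0.34). It was 1.05 in slide row 1 and 0.41 in row 2, and ran from 0.51 to 1.01 with each array left out.

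Fabp2, the intestinal form, was dim on every array. Its probe (chromosome 2, 219605027 to 219605086, plus strand, rn4) read -5.85, -6.28, -5.46 and -6.28 in control and -5.06, -6.04, -5.41 and -6.16 in PMSG, arrays 1 to 4 in turn. The ranges lay over each other, and 15 of the 16 spots were above background. The log2 difference was 0.30 (SE 0.29), and under quantile normalization it turned to -0.01, so no direction is given for Fabp2.

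The liver form Fabp1 and the brain form Fabp7 were mostly not above background. Fabp1 (chromosome 4, 104413796 to 104413855, plus strand, rn4) read -6.81, -6.59, -7.01 and -7.28 in control and -6.96, -6.72, -6.95 and -7.35 in PMSG, with 2 of its 16 spots above background, on 2 control-labelled arrays. Fabp7 (chromosome 20, 36815975 to 36816034, plus strand, rn4) read -8.36, -7.58, -6.07 and -8.89 in control and -8.02, -8.33, -6.15 and -6.87 in PMSG, with 3 of 16 spots above background. Array 3 was the highest of both labels for Fabp7. Neither gene was tested, and no difference is given for them.

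The nearest relatives in sequence and fold were described next, 8 genes for other fatty acid-, retinol- and retinoic acid-binding proteins. All 8 were tested, and the median of their differences was 0.34, beside 0.11 over all probes. With limma across all probes, Crabp2 was lower in arrays labelled PMSG and 7 did not pass. Crabp2, which hands retinoic acid to its receptor in the nucleus, read 5.71, 5.49, 5.29 and 5.62 on the control-labelled arrays and 2.71, 2.71, 3.30 and 3.03 on the PMSG-labelled ones. The arrays of each label kept close together and the difference was -2.59 (SE 0.16, limma adjusted p = 5.49e-05). So 1 relative was lower in arrays labelled PMSG, where Fabp5 and Fabp6 were also lower, and the others did not pass in either direction.

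Fabp4, the fat cell form, read 1.25, -1.42, 2.49 and 0.92 in control and 1.39, 2.14, 2.47 and 0.31 in PMSG. Its values overlapped, with control array 2 far below the others, and the difference was 0.77 (limma adjusted p = 0.481). The summed level of 8 adipocyte markers was 3.35 to 6.31 in control and 4.87 to 6.48 in PMSG, and control array 2 was also the lowest and control array 3 the highest of the control label there. Of those 8 markers 2 were higher in arrays labelled PMSG (Cidea by 1.85 and Slc2a4 by 0.96) and 6 did not pass, Retn among them with a difference of 1.20. For Fabp3, the summed level of 9 striated muscle markers was 0.82 to 1.37 in control and 1.04 to 2.08 in PMSG, with 3 of the 9 higher (Tnnt3 by 2.00 the most, or 0.85 with normexp) and Acta1 lower by 1.82. Tnnc2, the brightest of these muscle markers (mean -0.62 in control and 0.34 in PMSG), adds much to this sum and did not pass (limma adjusted p = 0.126). On PMSG array 4 the muscle sum was 1.93 while Fabp3 was the lowest of that label. The sum says little of the dimmer muscle markers. The part of fat and muscle cells in the Fabp3 and Fabp4 values was not tested. The other relatives, Fabp9 (-0.69), Fabp12 (0.44), Pmp2 (0.38), Rbp2 (0.30), Rbp7 (0.66) and Crabp1 (0.26), did not pass.

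**Figure D3:**
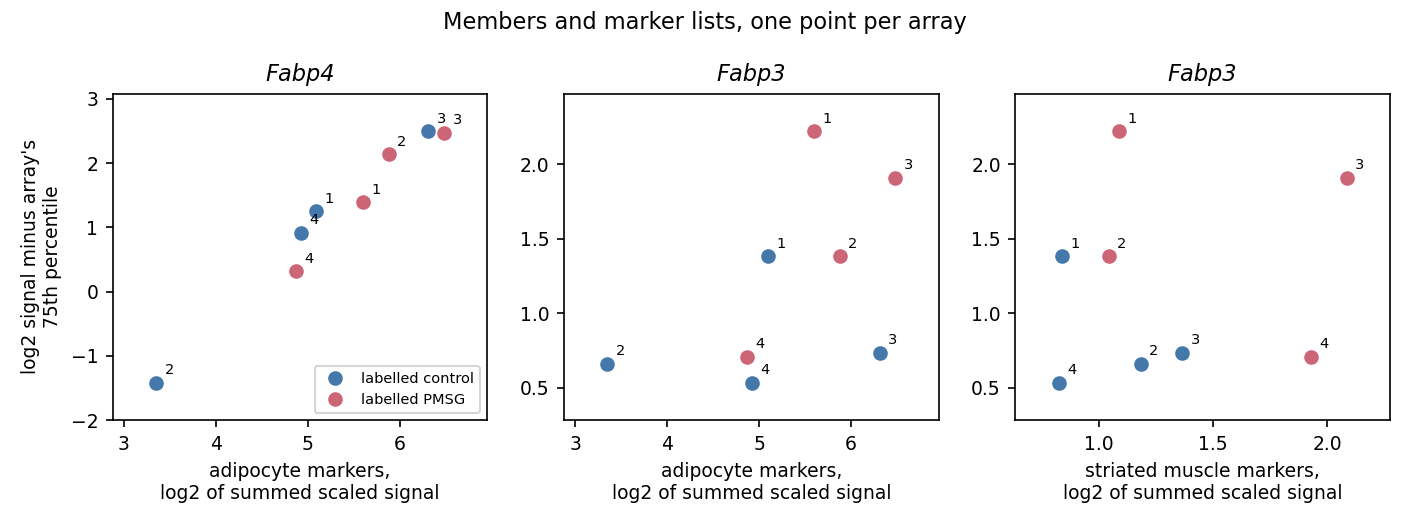
Level of Fabp4 and Fabp3 (log2 signal minus the array's 75th percentile) against the log2 of the summed scaled signal of adipocyte or striated muscle markers, 1 point per array with its replicate number, blue for arrays labelled control and red for PMSG. Control array 2 is lowest for both Fabp4 (-1.42) and the adipocyte sum (3.35), and PMSG array 4 has the lowest Fabp3 of its label (0.71) at a muscle sum of 1.93.

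Since Fabp6 carries bile acids, genes that make, move or sense bile acids were set beside it. Of 19 listed genes 13 were tested, and 3 were higher and 3 lower in arrays labelled PMSG, with a median difference of 0.01. Slc51a, a subunit of the exporter that passes bile acids and steroids out of the cell on the blood side, read 1.37, 0.78, 1.39 and 1.72 in control and -2.61, -2.34, -2.92 and -3.08 in PMSG. All 4 PMSG-labelled arrays lay below all 4 control-labelled ones, and the difference was -4.05 (SE 0.23, limma adjusted p = 3.81e-05), or 16.6-fold, at chromosome 11 from 70129769 to 70129828 in rn4. Slc51b, the other subunit, had a difference of 0.14, and Nr1h4, the bile acid receptor whose element is described above, one of -0.10 (limma adjusted p = 0.777). Neither passed, and both changed sign among the alternatives (Slc51b from -0.15 to 0.31 and Nr1h4 from -0.28 to 0.10). Nr0b2 (SHP), the repressor that Nr1h4 induces in liver, was lower by -1.31 (SE 0.30, limma adjusted p = 0.0112), and Slc51b, Nr1h4 and Nr0b2 were singled out after their values were seen.

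Slc27a5, which activates bile acids and fatty acids in liver, rose by 1.89 (SE 0.38, limma adjusted p = 0.00582), and Baat, which joins bile acids to taurine or glycine, rose by 1.49 (limma adjusted p = 0.00162), or 0.70 with normexp. The intestinal and liver importers Slc10a2 and Slc10a1, the rate-limiting enzyme of bile acid synthesis Cyp7a1, and the canalicular pump Abcb11 were above background on no array. Klb was not analysed here. The list is therefore split in direction, and the importers Slc10a2 and Slc10a1 were not seen above background, while both exporter subunits, Slc51a and Slc51b, were.

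Intestinal epithelium markers, the cell type for which Fabp6 is best known, showed 2 of 10 tested genes higher and 1 lower, with a median of 0.28. Their summed level was 1.40 to 1.63 in control and 1.18 to 1.64 in PMSG. This sum mostly follows Cdx1, the brightest of them, at a mean of 1.20 in control and 1.08 in PMSG. It therefore says little of the dimmer markers, and their part in the Fabp6 difference was not tested. Apoa1, a lipoprotein of liver and intestine, was lower by -2.27 (SE 0.28, limma adjusted p = 6.69e-04), or -1.14 with normexp. Its probe has no coordinates in the array files, and Mttp was above background on no array. Vil1, the villus protein, was higher by 0.71 (limma adjusted p = 0.0311), a call that 6 of 17 alternatives ended, quantile normalization among them (adjusted p of 0.0567 to 0.387 in those 6). Cdx2, the intestinal transcription factor known to act on Fabp6, was above background on 0 of 4 control-labelled and 4 of 4 PMSG-labelled arrays, at least 2.18-fold higher (limma adjusted p = 0.00423), the opposite direction to Fabp6. Its fitted difference under normexp was 0.26. A bound takes each dim array at its lowest spot above background or the probe's own value, whichever is higher.

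Most markers of steroid-making and luteal cells were lower in the arrays in which Fabp6 was low. Of 10 tested, Hsd3b1, the brightest, did not pass (mean 6.97 in control and 7.04 in PMSG, limma adjusted p = 0.719). The summed level of the list, to which Hsd3b1 adds much, was 8.63 to 8.81 in control and 7.35 to 8.00 in PMSG. The other 9 were lower in arrays labelled PMSG, and the median of all 10 was -1.98. The largest were Akr1c18, which inactivates progesterone and is named Akr1c3 on the array (-8.47, or -5.49 with normexp, with the probe above background on 1 of 4 PMSG-labelled arrays), Cyp11a1, the first enzyme of steroid synthesis (-3.36), and Ptgfr, the prostaglandin F receptor (at least 3.14-fold lower, above background on 0 of 4 PMSG-labelled arrays, with a fitted difference of -0.69 under normexp). PMSG array 2, the highest of its label for Fabp6, was also highest for the brighter Star probe, at 3.81 against 1.92, 1.42 and 0.99 on PMSG arrays 1, 3 and 4. The other Star probe did not show this, at 2.48, 1.99, 2.30 and 1.62 on PMSG arrays 1 to 4, and Star was chosen after its values were seen. The part of these cells in the Fabp6 difference was not tested. Among other cell types, granulosa markers had 1 of 6 tested genes higher and 1 lower. The higher one was Amh, by 3.03 (limma adjusted p = 2.61e-04). The lower one was Inhba, by -1.32 (limma adjusted p = 0.0237), a call that 5 of 17 alternatives ended. Oocyte markers had 8 of 8 higher. Endothelium markers had 1 of 8 higher and 3 lower, leukocyte markers 4 of 8 higher and glia markers 3 of 4 higher.

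Transcription factors known to act on Fabp6 were measured as 11 genes, of which 2 were higher, 2 lower and 7 did not pass, with a median of 0.07. Nr5a2, which drives steroid and bile acid genes, read 0.05, 0.54, -0.18 and 0.32 in control and -1.24, -1.04, -1.63 and -1.23 in PMSG. The groups did not overlap, and the difference was -1.47 (SE 0.19, limma adjusted p = 7.70e-04). Its relative Nr5a1, which binds the same form CAAGGNCA, differed by -0.36 and did not pass (limma adjusted p = 0.260). Srebf2, the regulator of cholesterol synthesis, was lower by -0.80 (limma adjusted p = 5.20e-04). Besides Cdx2, the oxysterol receptor Nr1h3 was higher, by 0.64 (limma adjusted p = 0.0451), but 10 of 17 alternatives ended this call (adjusted p of 0.0524 to 0.107 in those 10). The summed level was 3.64 to 3.78 in control and 3.32 to 3.40 in PMSG. The part of these factors in the Fabp6 difference was not tested.

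Nuclear receptors that fatty acid-binding proteins are known to supply with ligand, and their retinoid X receptor partners, were listed together as 10 genes. Of these, 2 were higher and 8 did not pass, with a median of 0.47. Both higher genes were retinoid X receptors, the shared partners of the fatty acid, bile acid and retinoic acid receptors, and no receptor of the supplied kind passed. Rxrb rose by 0.75 (limma adjusted p = 0.00134) and Rxra by 0.62 (limma adjusted p = 0.0185). The Rxra call was lost with quantile normalization, with normexp and without PMSG array 1 (adjusted p of 0.0510 to 0.105), and Rxra, Nr1h3, Slc27a2 and Got2 were added after their values were seen. Rxrg (1.14) and Ppard (0.68), a receptor to which Fabp5 is known to deliver, did not pass. Genes of fatty acid uptake and activation, the step before a carrier takes its load, showed 2 of 19 higher and 3 lower, with a median of 0.04. Slc27a6, a fatty acid transporter, was lower by -2.22 (SE 0.22, limma adjusted p = 2.62e-04), or -1.33 with normexp, and Acsl4, which activates arachidonic acid and is known from steroid-making cells, was lower by -1.40 (SE 0.12, limma adjusted p = 1.88e-04). Slc27a5, counted above among bile acid genes, and Slc27a2 (1.18, or 0.56 with normexp) were higher, and Got2 (-0.57) was lower.

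**Figure D4:**
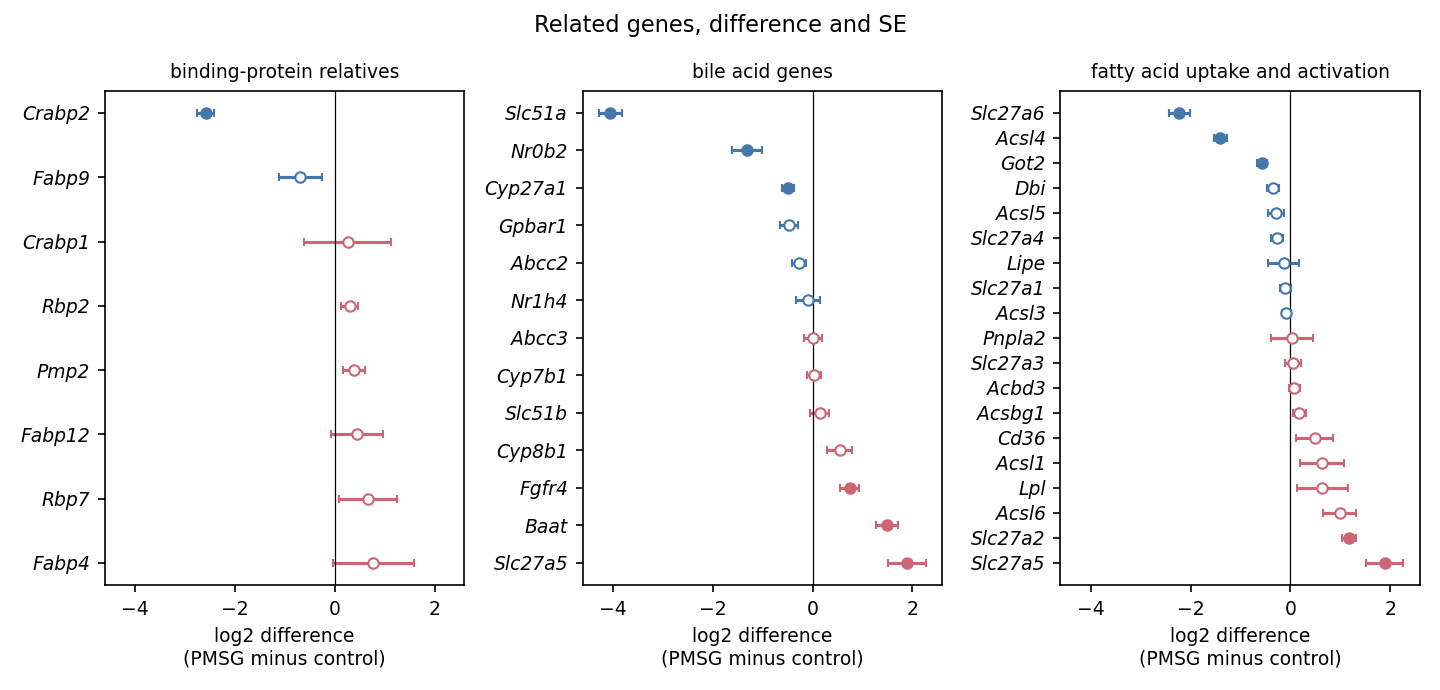
Log2 difference, arrays labelled PMSG minus arrays labelled control, with its SE, for tested relatives, bile acid genes and genes of fatty acid uptake and activation. Filled points passed a limma adjusted p of 0.05; Crabp2 (-2.59), Slc51a (-4.05) and Slc27a6 (-2.22) are the lowest of their panels.

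The genes with the profile most like that of Fabp6 were found over the 8 arrays, among 16117 tested probes whose gene name is a RefSeq symbol, with the nearest probe standing for a gene. Each profile was centred on its own mean, and likeness is the root mean square distance in log2 units. Runx2, a transcription factor of bone and of ovulating follicles, lay at 0.93 and Il1rl1, the receptor of interleukin 33, at 1.32, and both were above background on all 8 arrays. Ereg, which encodes the growth factor epiregulin, lay at 0.65, Akr1c3 at 0.96 and Mmp3, a matrix protease, at 1.30, but these 3 distances rest on PMSG-labelled signals mostly or wholly not well above background, so their order is not read. Likeness to Fabp6 over these arrays means being lower in arrays labelled PMSG, so these values are a description.

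Ereg was above background on 0 of 4 PMSG-labelled arrays and at least 18.3-fold lower there, and Mmp3, also on 0 of 4, at least 6.53-fold lower. Both bounds hold for the processed signal: with normexp the fitted log2 differences shrank to -2.24 for Ereg and -1.20 for Mmp3, far from the -6.40 of Fabp6. For Runx2 and Il1rl1 the difference depended on the probe. The Runx2 probe nearest to Fabp6 differed by -5.33 and its other probes by -0.36 and -0.66, while the Il1rl1 probe differed by -4.75 (-3.28 with normexp) and its other probe by -0.08. PMSG array 2 lay highest of its label for Fabp6 (-1.23), for Mmp3 (-6.89) and for the nearest Akr1c3 probe (-6.34). By little it was also highest for Ereg (-7.99 against -8.03 on PMSG array 1) and Runx2 (-2.25 against -2.27 on PMSG array 1). The Ereg and Mmp3 values there were not well above background. Il1rl1 was highest on PMSG array 4 (-4.47). These genes were picked for likeness over the same arrays, so nothing is read from a shared highest array.

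**Figure D5:**
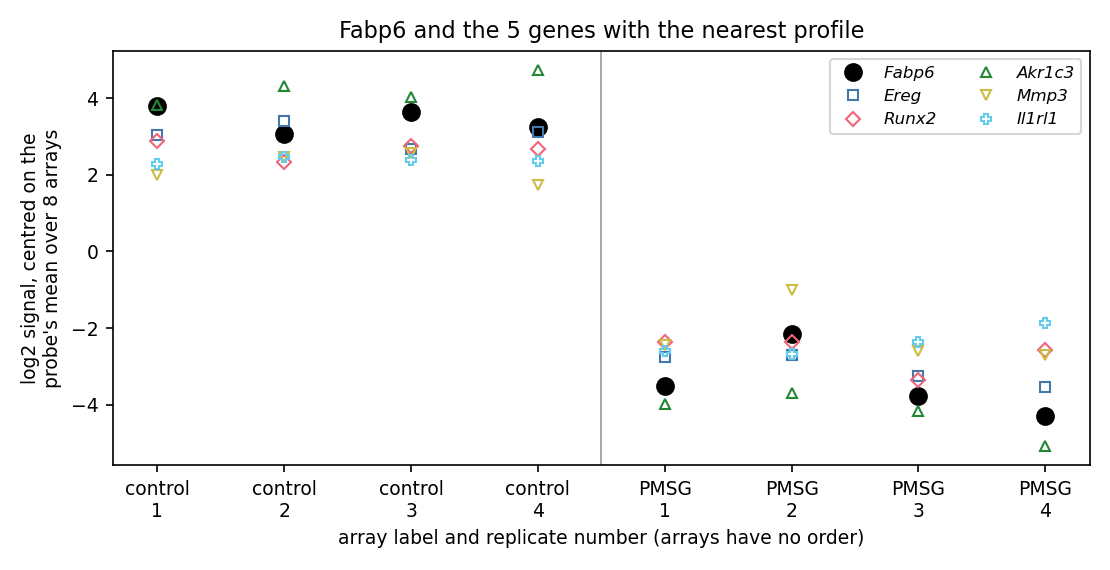
Log2 signal of Fabp6 (filled black) and the 5 genes with the nearest profile, each centred on its mean over the 8 arrays, by array label and replicate number. All 6 lie above 0 on the 4 arrays labelled control and below 0 on the 4 labelled PMSG; Fabp6 on PMSG array 2 is at -2.16, against -4.30 on PMSG array 4.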

How the data were processed

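Ovary RNA of 8 arrays (4 labelled control, 4 labelled PMSG) was analysed, grouped by title. Scanner images were turned into spot intensity by Agilent Feature Extraction 11.5.1.1, with coordinates on rn4, per the file headers. A further table the authors deposited holds log2 values, each within a median of 0.0044 to 0.0148 of the scaled scanner value by array, with column medians of -3.21 to -2.82, which fixes scale and direction. It was used as an alternative.

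Of 58717 non-control spots per array, outlier spots were left out, log2 processed signals of a probe's spots were averaged, and the array's 75th percentile was subtracted. Of 30367 probes, 17 were dropped because an array had no usable spot for them. A probe was above background where at least 0.5 of its spots were. The comparison was made in R 4.3.3 by limma 3.58.1 with no covariates, Benjamini-Hochberg adjustment over 25303 probes and a threshold of 0.05. The procedure was tested on simulated data.

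The members and gene lists were chosen with earlier results of these data known. Some listed genes are not reported here. Named are all members and relatives, up to 3 genes per list with the largest difference, and the 5 profiles nearest to Fabp6. Cdx1 and Hsd3b1 are given as the brightest of their lists and are not in the counts of named genes. Nr5a1 is given as a relative of Nr5a2, after its value was seen, and is also not in these counts. A gene with several probes is given by its brightest. Gene names are those of the array, with 2 listed genes reached through the RefSeq table (GRCr8). Quantile and median scaling, normexp (offset 50), other filters, blocks and leaving out each array were tried. Normexp started from the mean signal and local background of each spot, not the processed signal, and was followed by quantile normalization. Same-numbered arrays deviated from their group means with correlations of 0.04, 0.04, 0.18 and -0.02, and arrays of unlike number were not compared. Replicate numbers were not used as pairs in the main comparison, and whether they pair arrays is not settled. All arrays were of 1 slide and 1 scan date. The number of arrays limits the precision.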

Additional observations from a re-analysis of the deposited data

Results flagged for a closer look

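Each named gene under each label gave 128 groups of 4 arrays, with the 1 probe of Akr1c18 and Akr1c3 counted under both names. Of these groups, 7 held an array set apart from the rest, by Dixon's ratio of its gap to the group's whole range. Chance gives about 1 in 20, or 6.4 groups. None was a fatty acid-binding protein gene. PMSG array 2 was high for Mmp3, with a ratio of 0.839, at -6.89 against -8.59 to -8.32, all 4 below background. PMSG array 4 was high for the muscle marker Tnnt3 (ratio 0.923, -2.65 against -3.42 to -3.36) and for the glial marker Ncam1 (ratio 0.837, -0.33 against -1.26 to -1.11). PMSG array 3 was high for the leukocyte marker Laptm5 (ratio 0.903, 2.52 against 2.42 to 2.43). Control array 2 was high for Rxrb (ratio 0.873, 0.04 against -0.22 to -0.19). The fatty acid transporter Slc27a2 was highest on array 1 of both labels, at -4.11 against -4.42 to -4.37 in control (ratio 0.838) and -2.81 against -3.27 to -3.25 in PMSG (ratio 0.948).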

How the results depend on the processing

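Over 17 alternatives, Fabp6 kept a negative difference, from -7.30 without PMSG array 2 to -6.40 with normexp, and Fabp5 one from -1.09 with median centring to -0.83. Of the 128 listed genes tested, 55 (43.0%) were past the threshold, beside 34.2% of all tested probes. The lists were chosen with earlier results known, so nothing is read from that share. With each array left out, 48 to 62 listed genes were past the threshold. With the replicate number as a block, 7346 probes differed against 8658 without it, and 52 listed genes. Without PMSG array 4 the probes differing were 11382, and without control array 4 they were 6552. The 58 named genes count the 1 probe of Akr1c18 and Akr1c3 under both names. Of them, 49 kept their side of the threshold under each alternative that tested them. Genes below background on some array had no value where all 8 arrays had to be above it. Cdh5, Inha, Inhba, Ncam1, Nr1h3, Rxra, Rxrg, Sox10 and Vil1 did not keep their side under some, and no called gene turned its direction. Signal over background limits Fabp1, Fabp2 and Fabp7.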
